A study of Homo sapiens with 17 samples.

Results

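The transcripts described here come from 10 genes of the m6A pathway, chosen by name for their known roles and found among the 18869 genes of the deposited table. Writers are METTL3, METTL14, WTAP and VIRMA, readers are YTHDF1, YTHDF2, YTHDF3 and YTHDC1, and erasers are ALKBH5 and FTO. All 10 were protein-coding and had a TPM (length-scaled transcript level) that reached 5 in each IP, as did 9607 protein-coding genes (PCGs), which served as the background.

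The study asked which RNAs the nuclear poly(A) binding protein PABPN and its cytoplasmic counterpart PABPC carry, and how well those RNAs are met by ribosomes. It used HEK293T, a human line derived from embryonic kidney, with stable lentiviral constructs for Ribo-STAMP, in which the cytidine deaminase APOBEC1 is fused to the small-subunit ribosomal protein RPS2 and leaves C-to-U edits on RNA near that subunit. RPS2-STAMP cells (9 samples) carried the fusion, and Control-STAMP cells (8 samples) expressed APOBEC1 without it. Both were given doxycycline at 50 ng/ml for 24 h, crosslinked in 0.1% formaldehyde and sequenced as Input, as RNA from an IP of endogenous PABPN, and as RNA from an IP of endogenous PABPC. RPS2-STAMP had 3 samples in each of these 3 fractions, and Control-STAMP had 3 Input, 3 PABPN IP and 2 PABPC IP samples. The study's text describes the starting material as cytoplasm, whereas the protocol in the sample labels names no fractionation.

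N6-methyladenosine (m6A) is a methyl mark placed on mRNA in the nucleus by a complex built around METTL3 and METTL14. YTH-domain proteins bind the mark, in the nucleus or in the cytoplasm, and affect splicing, export, translation and decay, while a pair of demethylases can remove it. Values below describe the RNAs of the genes that encode these proteins, spliced or not. They do not measure the proteins or the m6A mark.

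Each gene had 1 TPM and 1 normalized EPKM per fraction, both pooled by the authors, so no value carries a replicate error and no difference was tested. EPKM counts edits scaled to transcript length and read number after subtraction of the control cells' editing. The study's text gives read totals for the libraries, but the number of reads behind each gene's value is unknown. All 6 HEK293T markers were in the table, with Input TPM of 184 for VIM, 106 for IGF2BP1, 37.7 for LIN28B, 26.9 for NEFL, 9.00 for NEFM and 0.797 for PAX2. Of 6 markers of other cells, COL1A1 had an Input TPM of 1.90, and PTPRC, HBA1, HBB, ALB and CD3E were not among the genes listed.

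Ratios between fractions are log2 TPM ratios set so that the median PCG is 0, and a gene was called higher or lower past 0.5 in either direction. Before this centring the median PCG lay at 1.14 for PABPN IP over Input, 0.99 for PABPC IP over Input and −0.19 for PABPC IP over PABPN IP. TPM summed to 854272 in the Input, 975719 in the PABPN IP and 995724 in the PABPC IP, and scaling each to 1000000 left medians of 0.95, 0.77 and −0.22. A centred ratio below 0 is thus lower than that of the median PCG and is not by itself a fall in TPM. TPM adds intronic to exonic reads, so a ratio is not one of spliced mRNA alone. In its IPs from total cell lysate, the study found intronic reads for far more genes with PABPN than with PABPC. The share of intronic reads in the TPM values used here is not known.

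In the PABPC IP relative to Input, 5 of the 10 members were lower than the median PCG past the threshold, against 18.1% of PCGs, and 0 were higher, against 8.37%. These were METTL3, METTL14, VIRMA, YTHDC1 and YTHDF3. In the PABPN IP relative to Input, 2 were higher (24.5% of PCGs) and 2 were lower (21.6%), shares near the background. Set directly against each other, 6 members lay toward the PABPN IP (31.5% of PCGs) and 2 toward the PABPC IP (30.4%). The member median was 0.10 for PABPN IP over Input, −0.51 for PABPC IP over Input and −0.60 for PABPC IP over PABPN IP.

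Without centring, the split for PABPN IP over Input changed to 9 members higher, against 84.6% of PCGs, and 0 lower, against 0.583%. For PABPC IP over Input it changed to 5 higher (81.3% of PCGs) and 0 lower (0.885%). With TPM scaled to 1000000, 8 members were higher (75.7%) and 0 lower (1.08%) in the PABPN IP, and 3 were higher (69.4%) and 0 lower (1.73%) in the PABPC IP. The member shares were thus near those of PCGs for the PABPN IP and below them for higher calls in the PABPC IP. Between the IPs, 6 members lay toward the PABPN IP and 1 toward the PABPC IP under either scaling, against 37.6% and 23% of PCGs without centring and 38.9% and 21.8% with scaling.

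At a centred threshold of 1, METTL3 was the 1 member higher for PABPN IP over Input (8.86% of PCGs) and 0 were lower (5.15%). For PABPC IP over Input 0 were higher (0.052%) and 2 lower (4.42%), METTL3 and VIRMA. Between the IPs, 3 members, METTL3, VIRMA and METTL14, lay toward the PABPN IP (17.4%) and 0 toward the PABPC IP (12.7%).

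**Figure D1:**
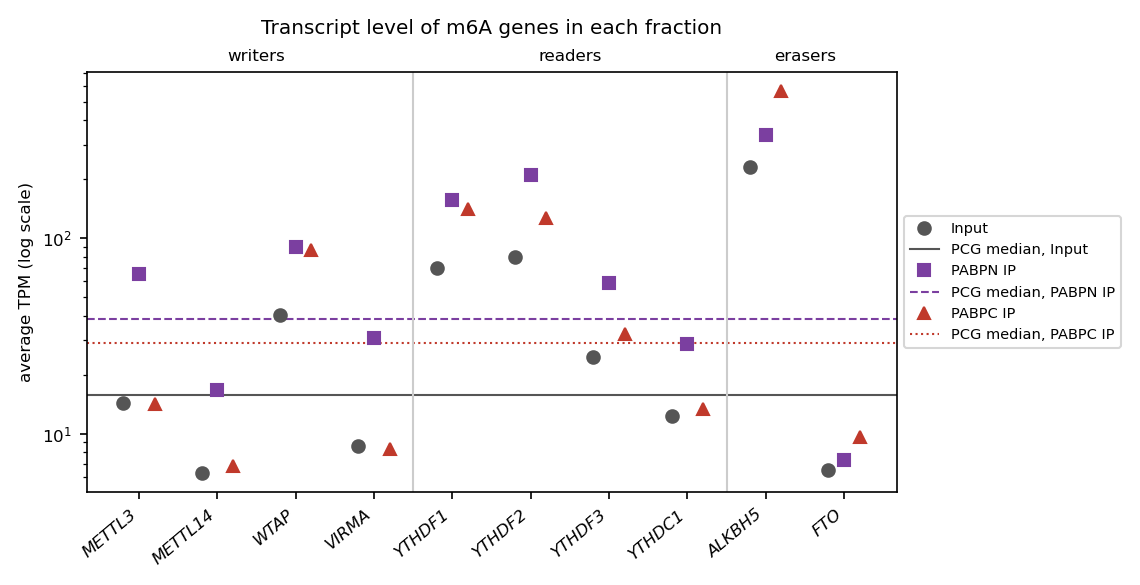
Average TPM (log scale) of each of the 10 members in the Input, PABPN IP and PABPC IP, 1 pooled value a point, with the PCG median of each fraction as a line. METTL3 stands at 14.3 in the Input, 65.8 in the PABPN IP and 14.2 in the PABPC IP, whereas ALKBH5 is highest in the PABPC IP, at 565.

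Among the writers, METTL3, the catalytic methyltransferase, showed the widest gap between the IPs of the 10 members. Its TPM was 14.3 in the Input, 65.8 in the PABPN IP and 14.2 in the PABPC IP. The PABPN IP value was 4.65 times the PABPC IP value and 4.59 times the Input value, while the PABPC IP and Input values were nearly equal. Relative to the median PCG, the ratio was 1.06 for PABPN IP over Input, above 92.6% of PCGs, and −1.01 for PABPC IP over Input, above 4.32% of PCGs. The PABPC IP over PABPN IP ratio was −2.02.

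VIRMA, a large scaffold of the writer complex, followed the same order at a lower level. Its TPM was 8.60 in the Input, 30.9 in the PABPN IP and 8.33 in the PABPC IP. The centred ratios were 0.71 for PABPN IP over Input, −1.03 for PABPC IP over Input and −1.70 between the IPs. For both VIRMA and METTL3 the uncentred PABPC IP over Input ratio was near 0, at −0.05 and −0.02, while the median PCG stood at 0.99 on that scale.

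METTL14, which partners METTL3 and helps hold the RNA substrate, was the least abundant member in the Input. Its TPM was 6.28 in the Input, 16.7 in the PABPN IP and 6.85 in the PABPC IP. The PABPC IP over PABPN IP ratio was −1.09. PABPC IP over Input was −0.86 with centring and turned to 0.13 without it, and PABPN IP over Input, at 0.27, was not past the threshold.

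WTAP, the adaptor that brings the METTL3 and METTL14 pair to nuclear speckles, did not share this partition. Its TPM of 40.3 in the Input was 90.0 in the PABPN IP and 86.6 in the PABPC IP, nearly equal in both IPs. None of its centred ratios passed the threshold, at 0.02 for PABPN IP over Input, 0.11 for PABPC IP over Input and 0.14 between the IPs, which became −0.06 without centring. In GENCODE release 44, 100% of the exonic length of WTAP lay within the span of SOD2. This overlap was counted without regard to strand. Regions shared by overlapping genes were removed from the authors' counting annotation. The TPM of WTAP shows that part of the gene was still counted there, but how much is not known here. The writers' median PABPC IP over PABPN IP ratio was −1.39.

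Among the readers, YTHDC1, the mainly nuclear YTH protein that acts in splicing and export, lay farthest toward the PABPN IP. Its TPM was 12.3 in the Input, 28.8 in the PABPN IP and 13.3 in the PABPC IP. The PABPC IP over PABPN IP ratio was −0.92, above 19.2% of PCGs. PABPN IP over Input was 0.09, close to the median PCG, so the difference between the IPs went with the PABPC IP over Input ratio of −0.88, which was 0.11 without centring.

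The cytoplasmic readers YTHDF1, YTHDF2 and YTHDF3 are close paralogs that bind m6A in mRNA and are linked to decay and translation of their targets. YTHDF3 had a TPM of 24.7 in the Input, 58.7 in the PABPN IP and 32.3 in the PABPC IP. YTHDF2, which recruits deadenylation machinery, had 80.1, 211 and 127 in the same order. YTHDF1 had 70.3, 158 and 142. The 3 paralogs thus were all higher in both IPs than in the Input by TPM, as most PCGs were. Without centring, 84.6% of PCGs were higher past 0.5 in the PABPN IP and 81.3% in the PABPC IP. Between the IPs, YTHDF2 and YTHDF3 were higher with PABPN, while YTHDF1 was nearly level. These differences were not tested.

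PABPC IP over PABPN IP was −0.67 for YTHDF3, −0.54 for YTHDF2 and 0.04 for YTHDF1. YTHDF2 was just past the threshold and was at −0.42 when the background was PCGs whose TPM reached 1 in all fractions, while YTHDF1 turned to −0.15 without centring. PABPC IP over Input was −0.60 for YTHDF3, −0.33 for YTHDF2 and 0.02 for YTHDF1, and without centring these were 0.39, 0.66 and 1.01. All 3 were within the threshold for PABPN IP over Input, at 0.11, 0.26 and 0.03. YTHDF1 and WTAP were the pair of members nearest to the median PCG in each ratio to Input.

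Both erasers lay toward the PABPC IP. ALKBH5, a nuclear m6A demethylase, was the most abundant member in every fraction, with a TPM of 231 in the Input, 335 in the PABPN IP and 565 in the PABPC IP. Its PABPC IP over PABPN IP ratio was 0.95, above 85.8% of PCGs. PABPC IP over Input was 0.30, and PABPN IP over Input was −0.60, which turned to 0.54 without centring and to 0.35 with TPM scaled to 1000000.

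FTO, a demethylase of m6A and of cap-adjacent m6Am, was low in all 3 fractions, with a TPM of 6.49 in the Input, 7.29 in the PABPN IP and 9.58 in the PABPC IP. PABPN IP over Input was −0.97, the lowest of the 10 members and above 5.64% of PCGs, but 0.17 without centring. PABPC IP over Input was −0.43, not past the threshold, and turned to 0.56, past it, without centring. The PABPC IP over PABPN IP ratio was 0.59 and fell within the threshold, at 0.40, without centring. The median of the 2 erasers on that ratio was 0.77, against −0.60 for the readers and −1.39 for the writers.

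**Figure D2:**
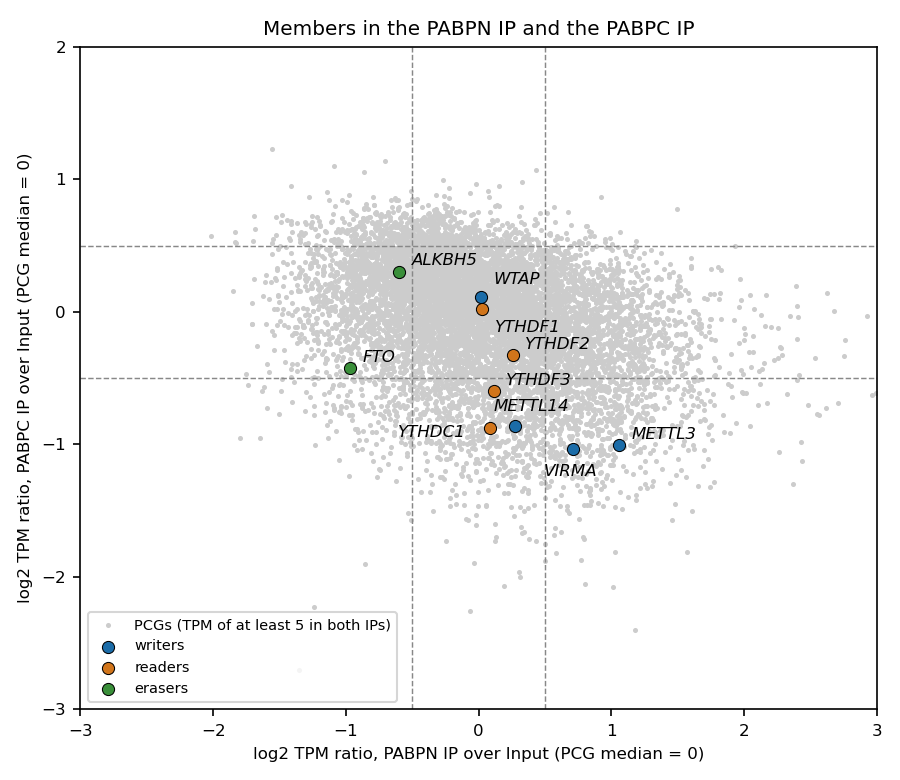
Centred log2 TPM ratio of PABPN IP over Input (x axis) against PABPC IP over Input (y axis) for PCGs (grey, 9567 inside the axes and 40 outside) and the 10 members coloured by role, with dashed lines at 0.5 on both sides of 0. METTL3 and VIRMA are at the lower right, ALKBH5 is at the upper left, and WTAP and YTHDF1 are near 0 on both axes.

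For scale, the nuclear RNAs MALAT1 and NEAT1 had PABPC IP over PABPN IP ratios of −4.14 and −3.91, and the well-translated cytoplasmic mRNAs ACTB and GAPDH had 1.44 and 1.61.

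Normalized EPKM above 0 means editing above the control cells. It was above 0 in the Input for 8 of the 10 members (78.1% of PCGs), in the PABPN IP for 8 (72.9%) and in the PABPC IP for 7 (82.6%). Editing was listed above 0 in all 3 fractions for 6 members, METTL3, VIRMA, YTHDF2, YTHDF3, ALKBH5 and FTO, against 50.5% of PCGs. The value was 0 in all 3 for 1 member, YTHDF1, as for 2.07% of PCGs.

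For METTL3, EPKM was 0.0440 in Input RNA, 0.101 with PABPN and 0.0217 with PABPC. The PABPC IP minus PABPN IP difference of log2(EPKM + 0.01) was −1.80. Editing of METTL3 was thus higher in the same IP in which its TPM was higher. Its PABPN IP value exceeded that of 83.6% of PCGs and the median of 0.0476 over PCGs in its own quintile of PABPN IP TPM.

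VIRMA had an EPKM of 0.0362 in the Input and close values in both IPs, 0.0615 with PABPN and 0.0614 with PABPC, although its TPM differed 3.71-fold between them. METTL14 had 0.0125 in Input RNA and 0.0231 with PABPC, and its PABPN IP value was listed at 0. WTAP showed the opposite, 0.0998 with PABPN and a listed 0 for both the Input and the PABPC IP. The 4 writers thus shared no order of editing between the fractions. Of 2004 PCGs with at least the PABPC IP TPM of WTAP, 235 (11.7%) were listed at 0 in that IP.

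YTHDC1 had an EPKM of 0.00908 in Input RNA and 0.101 with PABPN, whereas its PABPC IP value was listed at 0. YTHDF3 had 0.0849 in the Input, 0.119 in the PABPN IP and 0.0513 in the PABPC IP, and a difference of −1.08 on the same scale. YTHDF2 had 0.0168 in the Input, 0.0631 in the PABPN IP and 0.0520 in the PABPC IP. For these 3 readers the PABPN IP value was the highest of the 3 fractions. The Input value of YTHDF2 lay below the median of 0.126 over PCGs in its own quintile of Input TPM.

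YTHDF1 was listed at 0 in every fraction in spite of a TPM above that of 88.8% of PCGs in the Input. Of 1072 PCGs with at least its Input TPM, 18 (1.68%) were at 0 in all 3 fractions. Zeros in single fractions were more frequent among those 1072 genes, with 105 (9.79%) in the Input, 249 (23.2%) in the PABPN IP and 118 (11.0%) in the PABPC IP. A value of 0 does not separate absent editing from editing no higher than in the control cells.

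ALKBH5 had the highest EPKM of the 10 members in every fraction, at 0.157 in the Input, 0.160 in the PABPN IP and 0.171 in the PABPC IP. Its editing was nearly level across the fractions while its TPM was not. Medians over PCGs in its own TPM quintile were 0.126, 0.0572 and 0.117. FTO had 0.00802 in the Input, 0.000373 with PABPN and 0.0173 with PABPC, and the difference of log2(EPKM + 0.01) between the IPs was 1.40. ACTB, for comparison, had 0.889, 0.661 and 1.09.

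**Figure D3:**
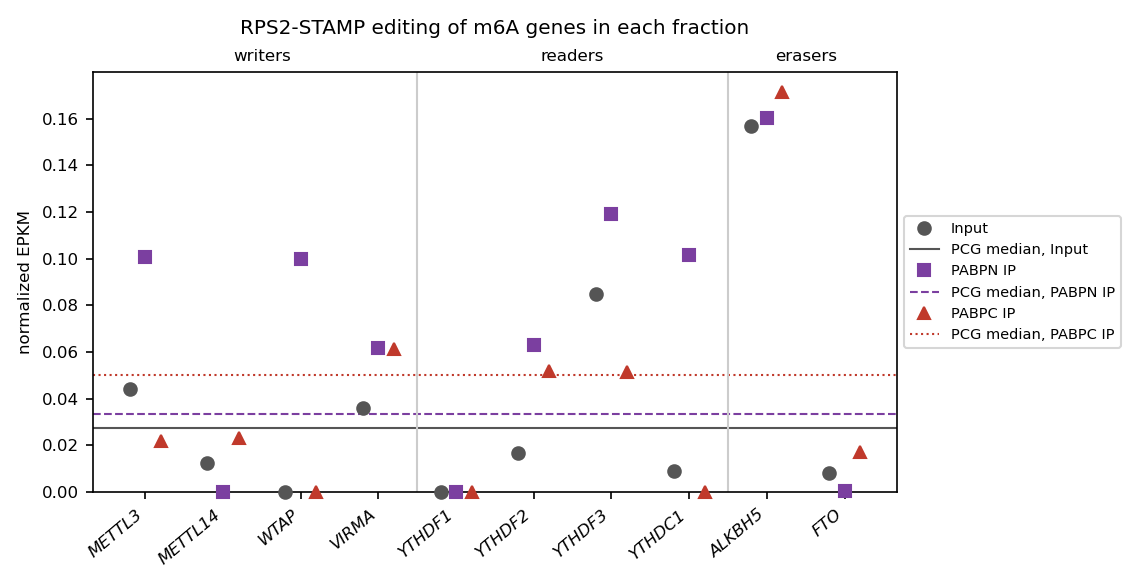
Normalized EPKM of RPS2-STAMP editing (linear axis) of each member in the Input, PABPN IP and PABPC IP, 1 pooled value a point, with the PCG median of each fraction as a line. YTHDF1 is at 0 in all 3 fractions, ALKBH5 is the highest in each, and 7 of the 10 members lie above the PCG median in the PABPN IP.

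Between the IPs, log2(EPKM + 0.01) favoured the PABPN IP by 2-fold or more for 4 members, METTL3, WTAP, YTHDC1 and YTHDF3, against 21.1% of PCGs. It favoured the PABPC IP by as much for 2 members, METTL14 and FTO, against 36.3%. With a pseudocount of 0.1 these counts were 1, against 3.71% of PCGs, and 0, against 9%. The member median EPKM was 0.0814 in the PABPN IP and 0.0224 in the PABPC IP, whereas PCG medians were 0.0334 and 0.0501. The PABPC IP median included 3 listed zeros, and over the 7 members above 0 it was 0.0513, beside a PCG median that includes genes at 0, while the mean over all 10 was 0.0398. The corresponding PABPN IP values were 0.100 over the 8 members above 0 and 0.0706 over all 10. In the Input the medians were 0.0147 over members and 0.0273 over PCGs. The number of members above the PCG median was 7 with PABPN, 4 with PABPC and 4 in Input RNA.

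Across genes, EPKM in different fractions was only loosely related, with Spearman's rho over the 9607 PCGs of 0.23 between Input and PABPN IP, 0.32 between Input and PABPC IP, and 0.19 between the IPs. EPKM also rose with TPM across PCGs, with rho of 0.53 in the Input, 0.25 in the PABPN IP and 0.45 in the PABPC IP. Genes are not independent replicates, and all values of a fraction share its libraries.

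APOBEC1 edits C, so the supply of that base was read from the GENCODE 44 canonical transcripts on hg38. The first 30 coding bases are shown, with every C in capitals, for the member farthest toward the PABPN IP, the member with no editing listed, and the member farthest toward the PABPC IP.

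METTL3: atgtCggaCaCgtggagCtCtatCCaggCC
YTHDF1: atgtCggCCaCCagCgtggaCaCCCagaga
ALKBH5: atggCggCCgCCagCggCtaCaCggaCCtg

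These windows held 9, 10 and 11 C. The full coding sequence of YTHDF1 held 496 C, or 29.5%, a share above that of 72.3% of PCGs. METTL3 had 431 C (24.7%) and ALKBH5 had 381 (32.2%). The other members with a listed 0 had lower shares, 21.6% in WTAP, 18.2% in METTL14 and 18.1% in YTHDC1, above 28.8%, 7.15% and 6.93% of PCGs. Whether the supply of C bears on the listed zeros was not tested. In hg38, METTL3 (ENSG00000165819) lies on the minus strand at chr14:21498133-21511342, YTHDF1 (ENSG00000149658) on the minus strand at chr20:63195429-63216139, and ALKBH5 (ENSG00000091542) on the plus strand at chr17:18183078-18209954.

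The coding sequence (CDS) of the members ranged from 1185 bases in ALKBH5 to 5439 in VIRMA, around a PCG median of 1323. YTHDC1 had 2184, YTHDF3 1758, METTL3 1743, YTHDF2 1740, YTHDF1 1680, FTO 1518, METTL14 1371 and WTAP 1191. Across the 9596 PCGs with an annotated CDS, its length was inversely related to PABPC IP over PABPN IP, with Spearman's rho of −0.62, and to PABPC IP over Input, with −0.66. Over the 10 members the same coefficients were −0.70 and −0.79. Exon number had −0.37 and −0.44 over PCGs and −0.72 and −0.86 over members for the same ratios. Transcript length had −0.58 and −0.51 over PCGs and −0.02 and −0.32 over members, and 3′ UTR length had −0.30 and −0.21 over PCGs and 0.24 and −0.03 over members. With 10 genes these coefficients are a description only.

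Exon number ran from 4 in ALKBH5 and 5 in each YTHDF gene to 24 in VIRMA. FTO combined the longest gene span (456821 bases) and the longest 3′ UTR of the members (10026 bases) with a position toward the PABPC IP. The letters GGACT, a common form of the sequence in which m6A is placed, were counted on the transcript strand. METTL3 had 2.02 per kilobase, WTAP 1.90 and VIRMA 1.54, above 91.4%, 89.3% and 81.0% of PCGs. YTHDF1 had 0.313 and YTHDF3 had 0.393, above 12.7% and 16.0%. METTL14 had 1.20. A match of these letters is not a methylated site.

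Sequence shared with other genes can blur a count. YTHDF2 shared 13.1% of its 50-base stretches with the pseudogene YTHDF2P1, and WTAP shared 10.3% with ENSG00000232702. The share was 0.895% in METTL14, 0.555% in FTO and 0 in the other 6 members. YTHDF1, YTHDF2 and YTHDF3 shared no such stretch with each other. Besides WTAP, exonic length within the span of another gene on either strand was 30.9% in ALKBH5 and 24.7% in YTHDF2. It was 7.40% in FTO, 6.62% in METTL3, where the neighbour is TOX4, and 0 in the other 5.

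A wider list of 21 pathway genes, chosen by known role, was listed in full, and 20 passed the TPM filter. Of those 20, 7 lay toward the PABPC IP (30.4% of PCGs) and 8 toward the PABPN IP (31.5%) past the threshold, with a median ratio of −0.05. For PABPN IP over Input 5 were higher (24.5% of PCGs) and 7 lower (21.6%), and for PABPC IP over Input 1 was higher (8.37%) and 6 lower (18.1%). The wider list thus fell on both sides, with most shares near those of PCGs. Without centring, 15 of the 20 were higher and 0 lower for PABPN IP over Input, against 84.6% and 0.583% of PCGs, and 14 were higher and 0 lower for PABPC IP over Input, against 81.3% and 0.885%. Between the IPs, 5 then lay toward the PABPC IP (23% of PCGs) and 8 toward the PABPN IP (37.6%).

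RBM15, which guides the writer complex to its targets, had the lowest PABPC IP over PABPN IP ratio of the wider list, at −2.33. Its TPM was 55.1 in the Input, 237 in the PABPN IP and 41.3 in the PABPC IP. ZC3H13, another subunit of that complex, had −1.95 but failed the filter, with a TPM of 3.89 in the PABPC IP. Other partners of the complex, named after their values were seen, did not share this: RBM15B was at 0.07 and CBLL1 at 0.10, near WTAP at 0.14. Of the 8 wider writers and partners past the filter, 3 lay toward the PABPC IP (30.4% of PCGs) and 3 toward the PABPN IP (31.5%). These counts were near the PCG shares, and the median was 0.09.

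Other methyltransferase genes were divided. TRMT112, the activating partner of METTL5, had the highest ratio of the wider list, at 1.55, with a TPM of 169 in the Input, 196 in the PABPN IP and 504 in the PABPC IP. METTL5, which methylates 18S rRNA, had 0.75, and ZCCHC4, which methylates 28S rRNA, had −0.81. TRMT112 was edited in Input RNA (EPKM 0.359) and with PABPC (0.320), and its PABPN IP value was listed at 0.

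Of the other readers, YTHDC2, a YTH protein with a helicase domain, had −2.12, close to METTL3. IGF2BP1 and IGF2BP2, which bind m6A-marked mRNA and favour its stability, had −0.85 and −0.55. HNRNPC, a nuclear RNA-binding protein that reads structure exposed by m6A, had 0.89. Of the 9 wider readers, 4 lay toward the PABPN IP (31.5% of PCGs) and 2 toward the PABPC IP (30.4%), with a median of −0.18. Of the enzymes that supply and clear the methyl donor S-adenosylmethionine (SAM), MAT2A, the catalytic subunit of SAM synthetase, had −1.33, while its regulatory subunit MAT2B had 1.15 and AHCY, which removes the by-product of methylation, had 0.94. MAT2A and MAT2B, which encode parts of the same enzyme, thus lay on opposite sides.

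MAT2A had a TPM of 106 in the Input, 421 in the PABPN IP and 147 in the PABPC IP, and MAT2B had 29.5, 34.1 and 66.0. Editing had the same order between the IPs, with an EPKM of 0.119 with PABPN and 0.0439 with PABPC for MAT2A, and 0.0856 and 0.240 for MAT2B. YTHDC2, HNRNPC and AHCY also had the order of their TPM. EPKM was 0.0405 with PABPN and a listed 0 with PABPC for YTHDC2, 0.173 and 0.304 for HNRNPC, and 0.100 and 0.216 for AHCY. ZCCHC4 was nearly level, at 0.0125 and 0.0112, and METTL5 was listed at 0 in both IPs. RBM15, IGF2BP1 and IGF2BP2 had the opposite order. Their EPKM was 0.0540, 0.0460 and 0.00969 with PABPN, and 0.0976, 0.153 and 0.109 with PABPC.

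**Figure D4:**
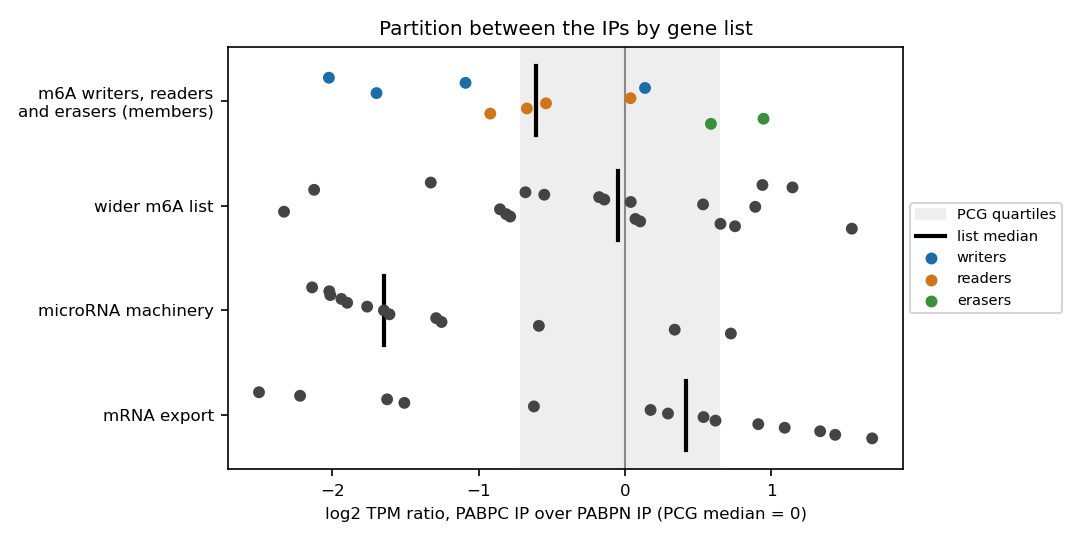
Centred log2 TPM ratio of PABPC IP over PABPN IP for the 10 members (coloured by role), the 20 genes of the wider m6A list, 13 genes of the microRNA machinery and 14 of mRNA export that passed the TPM filter. Black bars are list medians, the grey band is the middle of the PCGs between their quartiles (−0.71 to 0.64), and the member median is −0.60.

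Lists of other RNA regulators gave a second view of the same ratio. Of 13 microRNA machinery genes, 11 lay toward the PABPN IP (31.5% of PCGs) and 1 toward the PABPC IP (30.4%), with a median of −1.65 and a range from −2.14 for TNRC6B to 0.73 for TARBP2. Of 14 mRNA export genes past the filter, of 15 listed, 5 lay toward the PABPN IP and 7 toward the PABPC IP, against the same PCG shares, with a median of 0.42 and a range from −2.50 for ZC3H11A to 1.69 for ALYREF. Without centring, the microRNA counts were again 11 toward the PABPN IP (37.6% of PCGs) and 1 toward the PABPC IP (23%). The export counts were then 5 and 5, against the same uncentred shares. The m6A members, with 6 and 2 of 10 and a median of −0.60, lay between these lists. Median EPKM in the PABPN IP was 0.0572 for the microRNA machinery, 0.0161 for mRNA export and 0.0472 for the wider m6A list, below the members' 0.0814. In the PABPC IP it was 0.0440, 0.0567 and 0.0985, above the members' 0.0224. That member value includes listed zeros. Over members above 0 it was 0.0513, higher than the microRNA list's 0.0440, which includes any gene at 0. Of the 20 wider genes, editing favoured the PABPC IP by 2-fold or more for 8 (36.3% of PCGs) and the PABPN IP for 3 (21.1%). These counts were near the PCG shares, and their difference from the members' counts was not tested.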

How the data were processed

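HEK293T RPS2-STAMP and Control-STAMP samples (17 in all) were grouped by construct and fraction from the labels. The authors mapped reads with STAR (hg38) and kept C-to-U edits whose confidence score reached 0.5. They deposited normalized EPKM, a signal of edits scaled to transcript length and read number, less the editing of control cells. Its lowest value is 0. How negative differences and replicates were handled is not given in the sources used here. The authors' TPM values are averages per fraction that add exonic and intronic TPM. Counting used a custom GENCODE 34 annotation without readthrough transcripts or stretches where genes overlap. The submitters' processing notes name featureCounts 2.0.2. The samples behind each average are not given in the sources used here. Intronic reads enter TPM, so it is not a level of spliced mRNA alone.

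Log2 ratios of TPM (pseudocount 0) were centred on the median of 9607 PCGs whose TPM reached 5 in each IP and called past 0.5. EPKM was compared as log2(EPKM + 0.01) at 2-fold. A percentile is the percent of these PCGs with a lower value. No test was run, because each gene has 1 pooled value per fraction. Transcript features came from GENCODE 44, which is on the same build but a later release than the authors' annotation. Values were computed with pandas 2.3.3, NumPy 2.4.6 and SciPy 1.17.1 under Python 3.11.15 and plotted with matplotlib 3.10.9.

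The members and lists were chosen with earlier results of these data known. Named genes are the 10 members; up to 12 genes of the wider list past 0.5 in a ratio to Input, taken by the size of the ratio between the IPs; the highest and lowest gene of each comparison list; and MALAT1, NEAT1, ACTB and GAPDH. Markers of HEK293T and of other cells, and genes that share span or sequence with a member, were also named. RBM15B and CBLL1 fall outside these rules and were named after their values were seen. Alternatives changed the centring, scaling, pseudocounts, fold threshold and background genes.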

Additional observations from a re-analysis of the deposited data

How the results depend on the processing

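No paired analysis was possible because each gene has a single pooled value per fraction, and leaving out replicates was not run for the same reason. Without replicates or counts, the error of each TPM and EPKM is unknown.

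Without centring, members past the threshold numbered 9 higher (84.6% of PCGs) and 0 lower (0.583%) for PABPN IP over Input. They numbered 5 higher (81.3%) and 0 lower (0.885%) for PABPC IP over Input, and 1 toward the PABPC IP between the IPs (23%). With TPM scaled to 1000000, these were 8 and 0 (75.7% and 1.08% of PCGs), 3 and 0 (69.4% and 1.73%), and 1 (21.8%). The cause is the offset of the PCG median that centring removes. With a fold threshold of 1 (log2), 1 was higher (8.86% of PCGs) and 0 lower (5.15%) for PABPN IP over Input, 2 were lower (4.42%) for PABPC IP over Input, and 0 lay toward the PABPC IP (12.7%) and 3 toward the PABPN IP (17.4%). Without centring, single genes changed sign for PABPN IP over Input (FTO 0.17, ALKBH5 0.54), PABPC IP over Input (METTL14 0.13, YTHDC1 0.11, YTHDF3 0.39, YTHDF2 0.66, FTO 0.56) and between the IPs (YTHDF1 −0.15, WTAP −0.055). With scaling, those that changed sign were ALKBH5 (0.35) in PABPN IP over Input, YTHDF3 (0.17), YTHDF2 (0.44) and FTO (0.34) in PABPC IP over Input, and YTHDF1 (−0.18) and WTAP (−0.085) between the IPs. In PABPN IP over Input, YTHDF1 and WTAP were at −0.056 and −0.062 with PCGs whose TPM reached 1 in all fractions as the background, and at −0.016 and −0.022 with all genes that have a biotype. Of 150 single-gene values, 103 kept their direction and side of the threshold, 19 changed sign, 18 passed the threshold in the same direction and 10 fell within it. These shares differed by setting. Only 9 of 30 values kept both without centring, and 9 of 30 with scaling. With PCGs whose TPM reached 1 in all fractions as the background it was 27, and with all genes that have a biotype 28. With a pseudocount of 1, all 30 kept both.

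With an EPKM pseudocount of 0.1, 0 members passed 2-fold toward the PABPC IP (9% of PCGs) and 1 toward the PABPN IP (3.71%). The mean over members in place of the median was 0.0368 in the Input, 0.0706 in the PABPN IP and 0.0398 in the PABPC IP, and the median over members above 0 was 0.0265, 0.100 and 0.0513. By each of these summaries the PABPN IP value was the highest.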
